A study of Caenorhabditis elegans with 2 samples.

Results

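Of 7 genes known from the development of the C. elegans pharynx, pha-4 alone had peaks of tagged PAX-1 that passed the authors' threshold, and it had 2 of them, on either side of the gene. Over all protein-coding genes, 15.5% had such a peak in the same kind of window, so 1 of 7 is near the background. The genes were pha-4, tbx-2, ceh-22, ceh-34, eya-1, peb-1 and pha-1, 7 of the 19973 nuclear protein-coding genes of the annotation. They were found by name, and each was examined over its full length and 10 kb on either side. The set was chosen by an earlier reading of the same peak lists, in which the rank of the pha-4 peak by pooled signal was known. The counts and ranks below therefore describe the genes, and no test was made on them.

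The data are chromatin immunoprecipitation sequencing (ChIP-seq) of PAX-1, a Pax family transcription factor, in late-stage embryos, in 2 replicates that the labels call biological. Both came from strain OP117, genotype unc-119(ed3) III; wgIs117, whose insertion gives PAX-1 fused to enhanced green fluorescent protein (eGFP). The unc-119 mutation and the insertion are shared by both replicates, the embryos were of mixed sex and the labels give their age as unknown. There was 1 group and no untagged or untreated group, so no comparison of conditions was possible. Whole animals were used, so the cells from which a peak came cannot be told apart, and peak lists hold no expression values against which a tissue could be checked. The labels name no promoter for the transgene. Nor do they say whether separate cultures were grown.

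The pharynx is the neuromuscular feeding organ of the worm, built from muscle, neurons, glands, marginal cells and epithelium. The FoxA forkhead protein PHA-4 is required for cells to take on pharyngeal identity, and it binds many genes expressed in the organ. TBX-2, a T-box factor, is needed for pharyngeal muscle from the anterior blastomere lineage, and CEH-22, a homeodomain protein of the NK-2 class, activates genes of pharyngeal muscle such as the myosin gene myo-2. CEH-34, a homeodomain protein of the sine oculis family, acts in pharyngeal neurons with EYA-1, the worm Eyes absent protein. PEB-1 is a DNA-binding protein that recognises an enhancer of myo-2. PHA-1 is a cytosolic protein named for the pharyngeal defect of its mutant and later described as the antidote to the toxin SUP-35.

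The sequences around the summits of the highest peaks of pha-4, tbx-2 and pha-1 are printed to show the DNA at these places. Each is 151 bases of the plus strand of build ce11, read from the RefSeq assembly, with the summit at base 76, and capitals mark matches to the motifs searched (given further on). None of these windows overlapped an annotated UTR.
pha-4, downstream thresholded peak (chrV:20761907-20762057): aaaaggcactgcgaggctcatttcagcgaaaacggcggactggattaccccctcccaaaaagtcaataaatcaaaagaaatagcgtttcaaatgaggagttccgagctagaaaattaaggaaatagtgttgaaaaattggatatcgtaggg
pha-4, upstream thresholded peak (chrV:20749171-20749321): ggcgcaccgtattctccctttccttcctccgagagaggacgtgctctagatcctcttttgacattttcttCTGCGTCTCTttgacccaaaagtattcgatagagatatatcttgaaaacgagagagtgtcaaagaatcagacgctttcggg
pha-4, downstream peak just outside the threshold (chrV:20760843-20760993): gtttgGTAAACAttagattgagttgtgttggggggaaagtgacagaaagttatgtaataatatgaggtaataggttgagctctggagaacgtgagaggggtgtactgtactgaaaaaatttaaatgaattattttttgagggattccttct
pha-4, far upstream peak (chrV:20745479-20745629): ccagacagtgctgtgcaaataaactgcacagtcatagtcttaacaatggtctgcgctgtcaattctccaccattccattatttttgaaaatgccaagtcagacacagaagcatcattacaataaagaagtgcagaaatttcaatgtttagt
tbx-2, highest peak (chrIII:5128084-5128234): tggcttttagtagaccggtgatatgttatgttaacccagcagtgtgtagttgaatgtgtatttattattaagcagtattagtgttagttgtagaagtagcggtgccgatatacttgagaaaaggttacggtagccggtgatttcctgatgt
pha-1, highest peak (chrIII:11142207-11142357): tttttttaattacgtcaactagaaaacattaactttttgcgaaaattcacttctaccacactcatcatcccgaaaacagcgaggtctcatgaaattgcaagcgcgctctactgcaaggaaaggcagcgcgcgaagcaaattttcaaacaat
Of these 6 windows, the upstream thresholded window of pha-4 held the longest run of capitals, at the summit. The downstream thresholded window, with the highest signal, held none. The windows of the highest peaks of the other genes are not printed. Those of eya-1 and peb-1 held 1 motif match each, and those of ceh-22 and ceh-34 held none.

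The starting point was 4 peak lists on ce11. The lists of replicates 1 and 2 held 30000 and 29397 peaks, that of the replicates pooled held 30000, and the authors' thresholded list held 714. The signal of a peak is the authors' value on a scale the files do not state. It was used to rank peaks within a list, where rank 1 is the highest signal. The thresholded signals ran from 58.28 to 1574, and the median over all pooled peaks was 20.5. The replicate and pooled lists hold background as well as peaks, per the deposited file listing, and most of their entries are weak. The median −log10 q of the pooled list was 0.0382. That of the thresholded list was 1.85, which was also the highest value in both lists. An entry of these lists is called a peak below, as in the files, and is not by itself a bound site. Without read counts the depth of the samples is unknown.

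pha-4 (WBGene00004013, chromosome V, 20753052 to 20760317, plus strand) carried 2 thresholded peaks. Among protein-coding genes, 15.5% had at least 1 thresholded peak in the gene or within 10 kb and 2.35% had 2 or more. The higher peak, from 20761810 to 20762153, had a pooled signal of 111.4 and rank 111. Its summit lay 1665 bp beyond the 3' end of pha-4 and 8.93 kb from the first pha-4 start, in sequence with no annotated gene. It was at rank 119 in replicate 1, with a signal of 73.25, and at rank 123 in replicate 2, with a signal of 43.35. Both replicates thus placed it near the top of their lists. Of the 714 thresholded peaks, 56 (7.84%) were at rank 123 or better in both replicates.

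The other thresholded peak of pha-4, from 20749074 to 20749417, lay upstream, with its summit 3806 bp before the first start. Its pooled signal was 95.76, at rank 184. It was at rank 132 in replicate 1, with a signal of 71.08, and at rank 1110 in replicate 2, with a signal of 24.08. Its −log10 q was 3.15 in replicate 1, the highest value of that list, and 0.553 in replicate 2, where the highest was 1.65. This peak therefore stood high in replicate 1 and lower in replicate 2. Of all thresholded peaks, 428 (59.9%) were at rank 1110 or better in both. Its summit also lay in intergenic sequence. The summits of the 2 thresholded peaks were 12.7 kb apart and enclosed the whole gene.

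**Figure D1:**
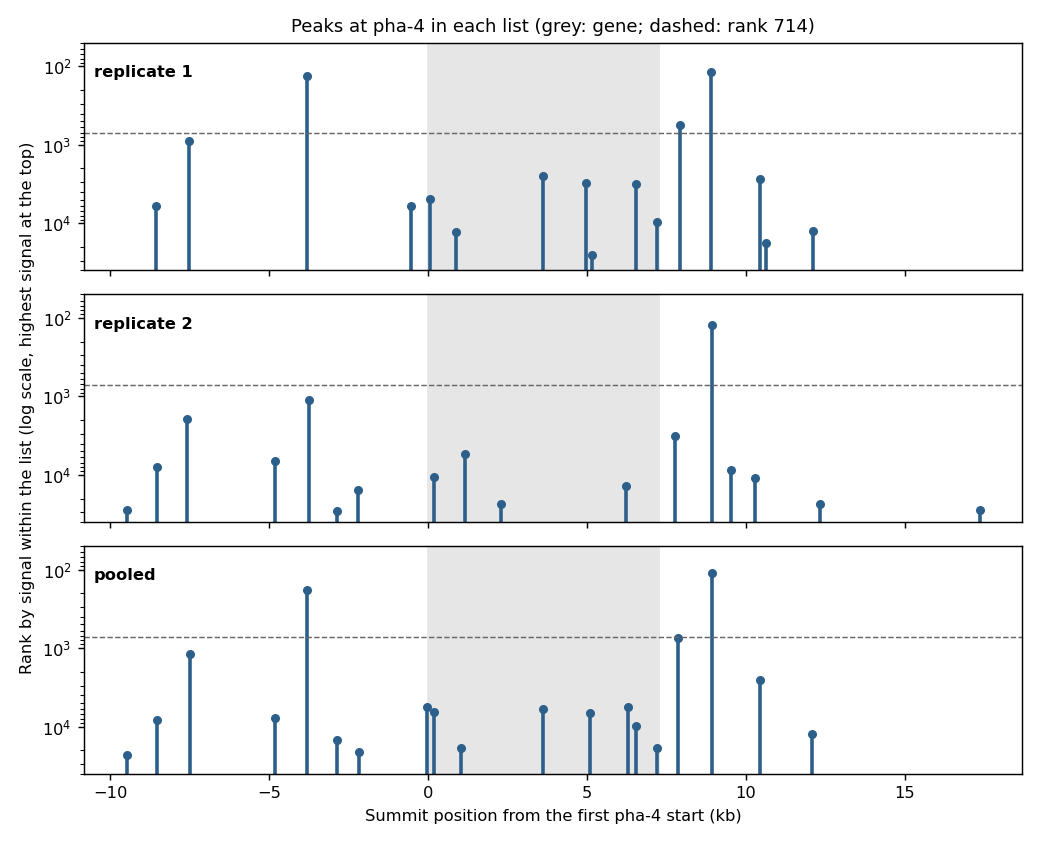
Peaks in pha-4 and within 10 kb of it in the lists of replicate 1, replicate 2 and the pooled replicates. The horizontal axis is the summit's distance from the first start in kb, and the vertical axis is the rank within the list on a log scale, with the highest signal at the top. The peak at 8.93 kb is above the dashed line (rank 714) in all 3 lists. The peak 3.81 kb upstream is above it in replicate 1 and in the pooled list, as is the peak 7.87 kb downstream in replicate 1 alone.

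Another peak of pha-4, 601 bp beyond its 3' end, from 20760746 to 20761089, was just outside the authors' threshold. The pooled signal there was 57.53 at rank 746, against the lowest thresholded signal of 58.28. Replicate 1 had it at rank 556 and replicate 2 at rank 3182. A further peak, from 20745382 to 20745725, had a signal of 47.55 at rank 1190, with ranks 884 and 1930 in replicates 1 and 2. It was nearer to another gene than to pha-4, 1208 bp upstream of dnj-25, a gene for a DnaJ-domain protein. The peaks at ranks 111, 184 and 746 all had a pha-4 start as their nearest protein-coding start. For the downstream peaks at ranks 111 and 746 that start was the last of its 3 annotated starts, inside the gene, at 5072 and 4008 bp. The next gene, elp-1, which encodes a microtubule-associated protein, had a start 7162 bp and 8226 bp away from them. The upstream peak at rank 184 was 3806 bp from the first pha-4 start and 4900 bp from that of dnj-25. Counted by the same window, elp-1 also had 2 thresholded peaks and dnj-25 had 1, so the window does not assign these peaks to pha-4 alone.

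The body of pha-4 held lower peaks. Its window held 19 pooled peaks, or 6.97 per 10 kb, against a chromosome V mean of 2.44 and a median over protein-coding genes of 2.78. A density above that median was not particular to pha-4. It was 5.62 at pha-1, 5.01 at peb-1, 4.73 at tbx-2, 4.61 at ceh-22, 4.57 at eya-1 and 2.91 at ceh-34. The 6 peaks with a summit in an intron had pooled ranks from 5689 to 18651. A summit 42 bp upstream of the first start had a signal of 27.86 at rank 5596, and the peak in the UTR at the end of the gene was at rank 18742. The strong peaks of pha-4 were therefore outside the transcribed region. The peak nearest to its first start was lower than these, though above the median pooled signal of 20.5. Of the 19, 4 were among the 1500 highest pooled peaks (5% of the list). As a description, 58 of 19973 genes (0.29%) had 4 or more in their windows, and among the 10548 genes with a window within 20% of the width of that of pha-4, 34 had (0.322%). The 4 at pha-4 included the peak at rank 1190, whose nearest start was that of dnj-25. In replicate 1 alone 3 peaks at pha-4 were among the 714 highest, and in replicate 2 alone 1 was.

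**Figure D2:**
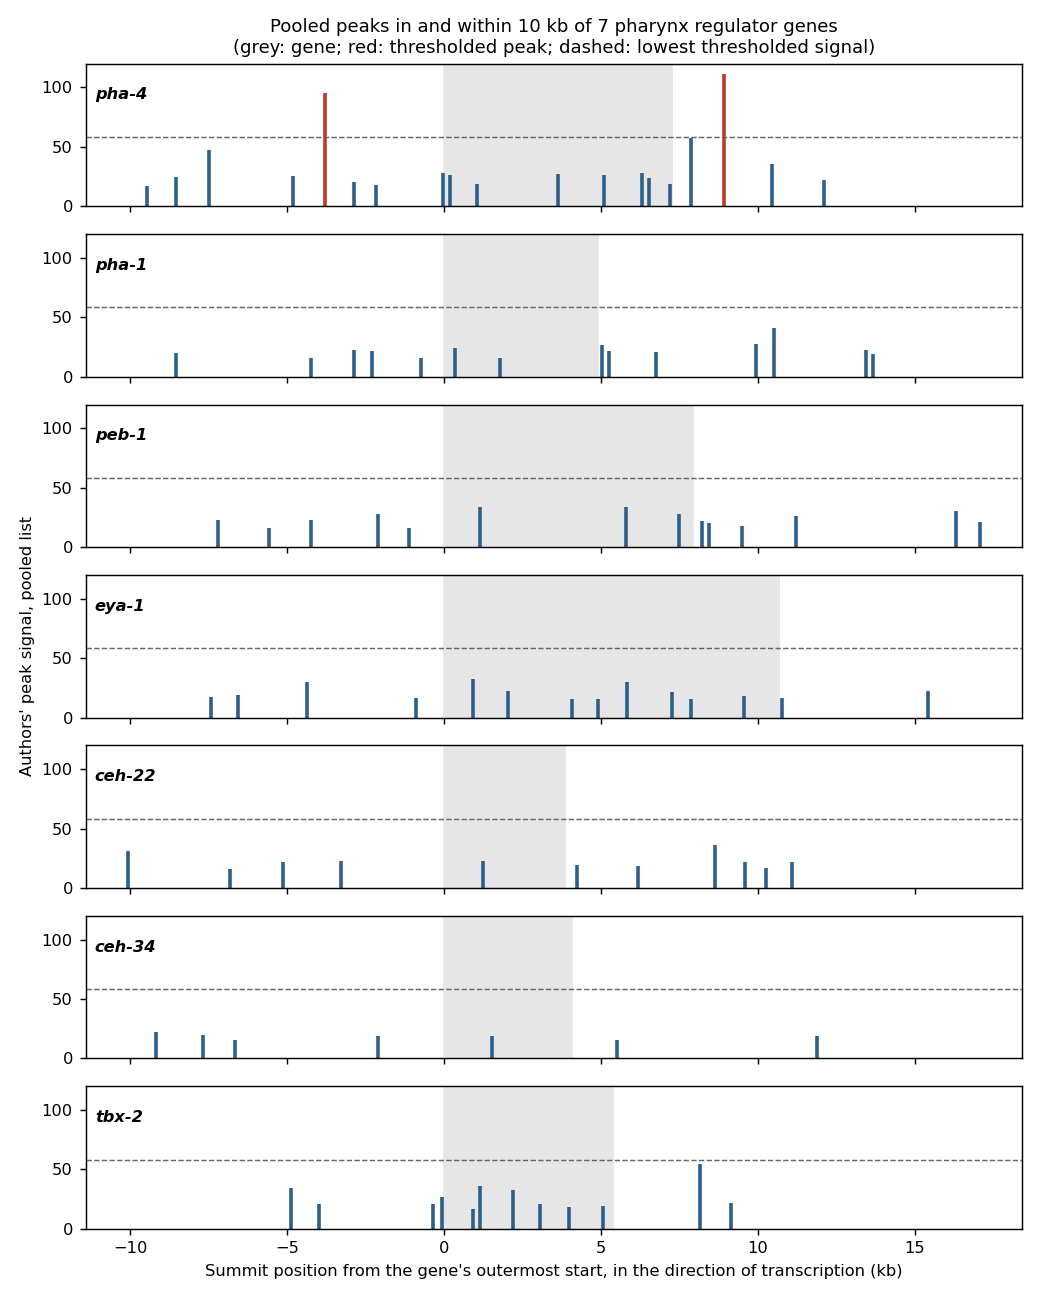
Signal of each pooled peak in and within 10 kb of the 7 genes, against the distance of its summit from the gene's outermost start in kb, in the direction of transcription. Only pha-4 has peaks above the dashed line, which is the lowest thresholded signal of 58.28, and both lie outside the shaded gene.

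The T-box gene tbx-2 (WBGene00006543, chromosome III, 5130923 to 5136296, minus strand) came next, with no thresholded peak and a highest pooled signal of 54.63 at rank 849. That peak, from 5127987 to 5128330, lay 2764 bp beyond the 3' end of tbx-2, within the neighbouring gene sax-2 and outside its exons. Its nearest protein-coding start was that of sax-2, at 6148 bp. It was at rank 1359 in replicate 1 and rank 1691 in replicate 2, so it was moderately high in both. Within tbx-2 itself, intronic peaks 1152 and 2183 bp from its start had pooled signals of 36.21 and 32.37, at ranks 2376 and 3367. At the start, peaks with summits 78 and 357 bp upstream had signals of 27.02 and 21.17. Both overlapped the same replicate peaks, at rank 7714 in replicate 1 and 5057 in replicate 2. A peak 4878 bp upstream, within the gene Y54H5A.2, was at rank 1299 in replicate 1 and overlapped no peak of replicate 2.

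The NK-2 gene ceh-22 (WBGene00000445, chromosome V, 10671918 to 10675769, plus strand) had 11 pooled peaks and no thresholded one. The highest, from 10680380 to 10680723, had a signal of 36.28 at rank 2361 and lay 4783 bp beyond the 3' end. Its nearest start was that of gsp-1, a protein phosphatase gene, 1870 bp away. Replicate 1 had it at rank 8450 and replicate 2 at rank 1439. Inside ceh-22 there was a single pooled peak, in an intron, with a signal of 22.83 at rank 10939. This peak was found in replicate 2, at rank 2480, and not in replicate 1. Of the 11 peaks, 7 were in replicate 2 only, 1 in replicate 1 only and 3 in both.

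At ceh-34 the pooled peaks were all low. The highest at ceh-34 (WBGene00000455, chromosome V, 5315496 to 5319577, minus strand) had a signal of 22.6 at rank 11250 and was 348 bp upstream of another gene, C10G8.8. The window of ceh-34 held 7 pooled peaks, 2.91 per 10 kb, and 1 of them was in both replicate lists. A peak 2101 bp upstream of its start was at rank 2651 in replicate 1, at rank 19364 in the pooled list and in no overlapping peak of replicate 2. Its best peak was the lowest among the 7 genes, and 16.4% of protein-coding genes had a lower one or no pooled peak. The neighbouring homeobox gene ceh-33, of the same family, had a highest signal of 28.5.

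At eya-1 (WBGene00001377, chromosome I, 14220693 to 14231360, minus strand), the longest of the 7 genes, 8 of the 14 pooled peaks had their summit inside the gene, 7 in introns and 1 in a coding exon. The highest was intronic, 597 bp from a start of the gene, with a signal of 32.24 at rank 3409. Replicate 1 had it at rank 19252 and replicate 2 at rank 1859. A pooled peak in the neighbouring gene clec-114, 4374 bp upstream, overlapped a replicate 2 peak at rank 832. The replicate 1 peak it touched, at rank 16938, did not overlap that replicate 2 peak. An intronic peak at pooled rank 27646 was at rank 3002 in replicate 1 and had no overlapping peak in replicate 2. At none of these 3 did both replicates have a high-ranking peak.

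At peb-1 (WBGene00003968, chromosome X, 2211051 to 2218988, plus strand) the 2 highest of 14 pooled peaks were intronic and nearly equal, with signals of 33.68 and 33.67 at ranks 2960 and 2965. The first lay 1136 bp inside the first start and was at rank 3217 in replicate 1 and 7331 in replicate 2. The second, 340 bp upstream of an internal start, was at rank 4968 in replicate 1 and had no overlapping peak in replicate 2. The highest peak of replicate 1 in the window, 2124 bp upstream of the gene, was at rank 1481 there and 5308 in the pooled list, and it too had no overlapping peak in replicate 2. Of the 14 peaks, 7 were in replicate 1 only, 2 in replicate 2 only and 5 in both.

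At pha-1 (WBGene00004010, chromosome III, 11131775 to 11136688, plus strand) the highest of 14 pooled peaks belonged by position to other genes. It lay between pola-1, the gene for the catalytic subunit of DNA polymerase alpha, and Y47D3A.1, 166 and 441 bp upstream of their starts and 10483 bp from the nearest pha-1 start. Its pooled signal was 40.82 at rank 1718. It was at rank 3816 in replicate 1 and rank 413 in replicate 2, where it was among the 714 highest. Near pha-1 itself, the summit 744 bp upstream had a signal of 16.08 at rank 26771, found in replicate 1 only. The summit 327 bp downstream of a start, in an intron, had a signal of 23.94 at rank 9461 and overlapped a replicate 2 peak at rank 2001 and no replicate 1 peak. That replicate 2 peak did overlap a replicate 1 peak, at rank 9370, which lay beyond the pooled peak. None of the 3 pooled peaks whose nearest start was that of pha-1 overlapped peaks of both replicates.

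Across the 7 genes there were 91 entries of the pooled list, most of them weak. Their median −log10 q was 0.0463, and 5 reached 1 or more (4 at pha-4 and 1 at tbx-2). None at ceh-34 was above 0.0535. Of the 91, 34 (37.4%) overlapped a peak in both replicate lists by at least 1 bp, against 36.5% of all nuclear pooled peaks, so the share is near the background. It was 12 of 19 (63.2%) at pha-4, 6 of 12 at tbx-2, 5 of 14 at peb-1, 4 of 14 at eya-1, 3 of 14 at pha-1, 3 of 11 at ceh-22 and 1 of 7 at ceh-34. Without pha-4 it was 22 of 72 (30.6%). In 2 of the 34, at pha-1 and eya-1, the 2 replicate peaks did not overlap each other. Overlapping pooled peaks can share 1 replicate peak, and there were 7 such neighbouring pairs, 2 of them at pha-4. Of all 91 peaks, 28 were in replicate 1 only, 27 in replicate 2 only and 2 in neither. The shares of all nuclear pooled peaks in 1 replicate only or in neither were not counted. These counts, and those given for ceh-22 and peb-1 above, therefore have no background beside them and are a description only.

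**Figure D3:**
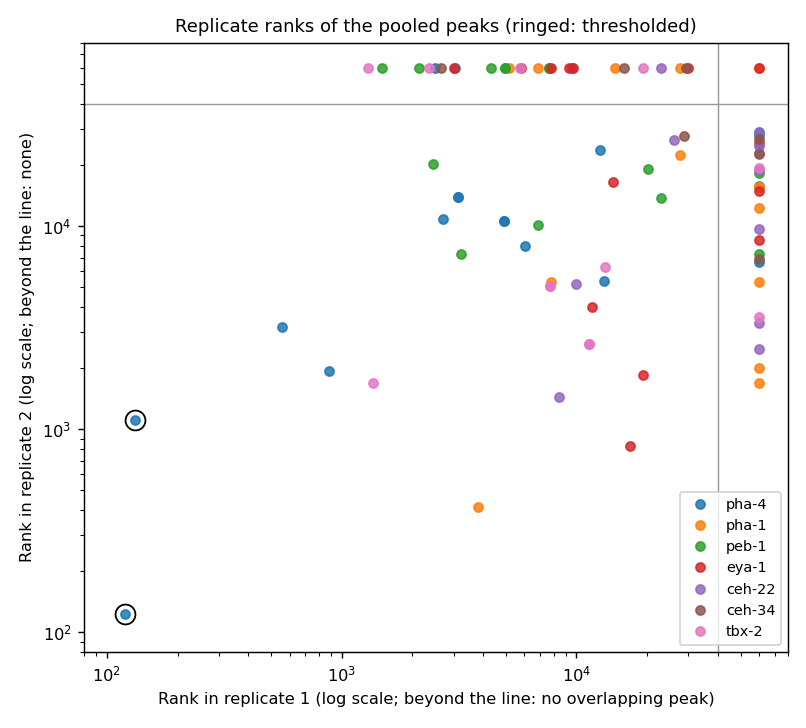
Rank of the replicate 1 peak (horizontal, log scale) against that of the replicate 2 peak (vertical, log scale) that overlapped each of the 91 pooled peaks, coloured by gene. Peaks beyond the grey lines had no overlapping peak in that replicate. The thresholded peaks of pha-4 are ringed, at ranks 119 and 123 and at ranks 132 and 1110.

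By height, pha-4 and tbx-2 again came first. Of the 91, 5 were among the 1500 highest pooled peaks (5.49%), against 4.94% of nuclear pooled peaks. They were the 4 at pha-4 and the highest at tbx-2, so the other 5 genes had none. All 5 were in both replicate lists, as were 93.6% of nuclear pooled peaks at that height. The highest peak per window fell in the order pha-4, tbx-2, pha-1, ceh-22, peb-1, eya-1 and ceh-34, with signals of 111.4, 54.63, 40.82, 36.28, 33.68, 32.24 and 22.6. The median over all protein-coding genes with a pooled peak was 32.41. A lower best peak or no pooled peak was found for 97.7% of protein-coding genes in the case of pha-4, 81.9% for tbx-2 and 51.1% for eya-1. These shares count the 635 genes without a pooled peak, which the median leaves out. A pooled signal has no replicate error of its own, so neighbours in this order cannot be told apart by it. The replicates ordered the genes differently. By best rank, tbx-2 came second in replicate 1 (rank 1299) and pha-1 second in replicate 2 (rank 413), while pha-4 came first in both (ranks 119 and 123).

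**Figure D4:**
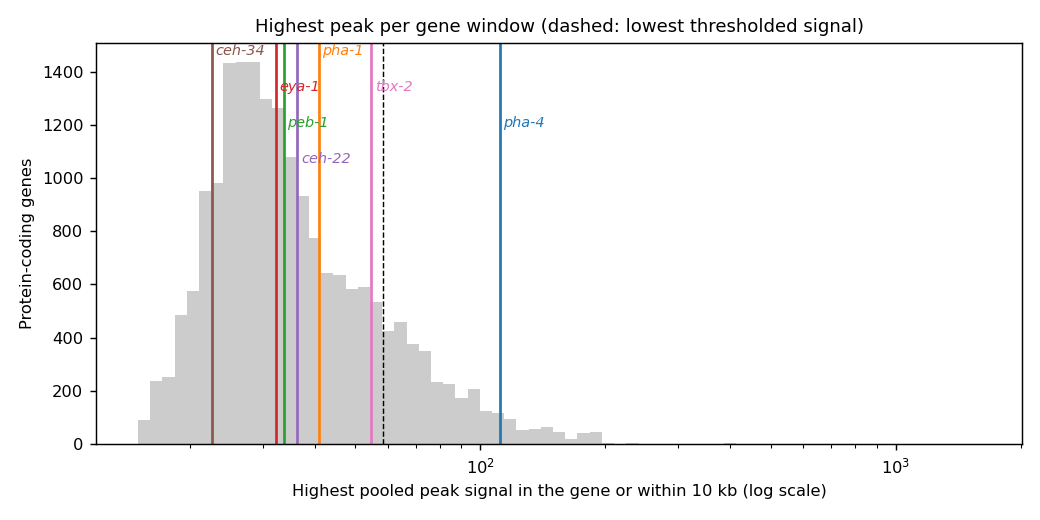
Number of protein-coding genes (vertical) by the highest pooled peak signal in the gene or within 10 kb (horizontal, log scale), with the 7 pharynx regulator genes marked. pha-4, at 111.4, is the only one of the 7 to the right of the dashed line at 58.28.

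With the 714 highest peaks of a single replicate in place of the thresholded list, 1 of the 7 genes had a peak in replicate 1 (pha-4) and 2 in replicate 2 (pha-4 and pha-1). Of all protein-coding genes, 15.5% had one in replicate 1 and 15.3% in replicate 2, so counts of 1 and 2 of 7 are close to the background. The nearest thresholded peaks of the other genes were 12.1 kb from pha-1, 23.8 kb from peb-1, 36.2 kb from tbx-2, 42.8 kb from ceh-22, 84.7 kb from eya-1 and 261 kb from ceh-34. At the 10 kb limit itself, the outermost peak counted at pha-4 was 9.31 kb away with a signal of 17.33, and the first not counted was 10.3 kb away with a signal of 30.15. Likewise the outermost peak counted at ceh-22 was 9.89 kb away (signal 31.03) and the first not counted 10.2 kb away (signal 21.17).

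Most peaks in the windows were not at the starts of the 7 genes. By summit, 34 of the 91 were upstream of the gene, 29 downstream, 24 in its introns, 3 in UTR exons and 1 in a coding exon. The nearest protein-coding start belonged to the gene itself for 43 and to a neighbour for 48. It was the gene's own for 10 of 12 peaks at tbx-2 and 13 of 19 at pha-4, but for only 3 of 14 at pha-1 and 3 of 11 at ceh-22. A start of any protein-coding gene lay within 500 bp of 23 of the 91 summits. The same counts were not made over the windows of all genes. Each window took in 10 kb on either side of the gene and from 2 to 6 other protein-coding genes. These placements therefore describe the windows as drawn and are not shown to be a trait of the 7 genes.

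Other genes of the pharynx were examined in the same window. Of 33 such genes, 5 (15.2%) had a thresholded peak, close to the 15.5% of all protein-coding genes. They were 4 of 17 further regulators (23.5%) and 1 of 16 genes for structure and function (6.25%), and no test was made of this difference. The highest was at glp-1, which encodes a Notch receptor that acts in the induction of pharyngeal precursors. That peak was in an intron 243 bp inside the start, with a signal of 78.24 at rank 323, and was at rank 179 in replicate 1 and 9927 in replicate 2. At the homeobox gene ceh-2, expressed in the anterior pharynx, an intronic peak 2515 bp from the start had a signal of 69.22, with ranks 935 and 1557 in replicates 1 and 2.

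The other 3 thresholded peaks were nearer to other genes. The peak near myo-2, the pharyngeal myosin heavy chain gene, had a signal of 69.8 and was 227 bp upstream of atf-6. That near hlh-6, a basic helix-loop-helix gene of the pharyngeal glands, had a signal of 67.87 and was nearest to nhr-19. That near ceh-24, an NK-2 class homeobox gene, had a signal of 61.37 and was nearest to swan-1. In replicates 1 and 2 the hlh-6 peak was at ranks 661 and 336 and the ceh-24 peak at ranks 812 and 555. The peak near myo-2 ranked high in replicate 1 only (224 against 10577). Of the 33 genes, 32 had a pooled peak in the window, and the median of the highest signal was 35.64 for the regulators and 27.63 for the structural genes.

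**Figure D5:**
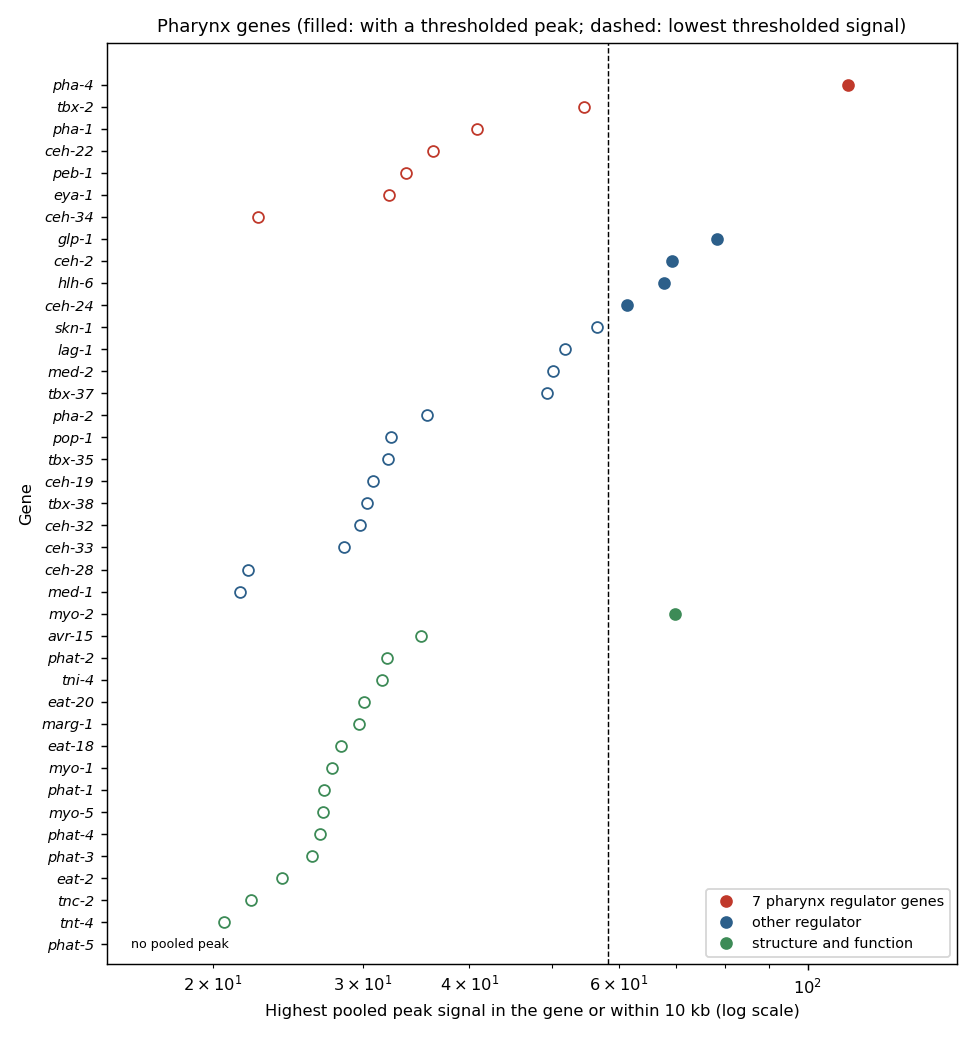
Highest pooled peak signal in the gene or within 10 kb (horizontal, log scale) for the 7 genes, 17 other regulators and 16 genes for structure and function of the pharynx. Filled points mark genes with a thresholded peak, and the dashed line is the lowest thresholded signal. pha-4 is the highest of all genes shown, at 111.4, and phat-5 had no pooled peak.

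Like the peaks of pha-4, 120 of the 696 nuclear thresholded peaks (17.2%) had no protein-coding start within 2000 bp of the summit. The 5 closest in pooled rank to the downstream peak of pha-4, with rank differences from 2 to 14, had as their nearest starts F54F12.1, F07H5.13, ttx-1, F22H10.2 and Y37A1B.7. The ttx-1 peak, upstream of a homeobox gene of the AFD thermosensory neuron, had a signal of 109.5 and was at rank 59 in replicate 1 and only 8667 in replicate 2. The F22H10.2 peak, with a signal of 115.4, was at ranks 99 and 86 and so, like that of pha-4, high in both. The other 3 were at ranks 191 and 47 (F54F12.1), 96 and 242 (F07H5.13) and 44 and 444 (Y37A1B.7). Closest to the upstream peak of pha-4, with rank differences from 2 to 8, were peaks near Y17G7B.17, mapk-15, F25F8.1, sma-9 and kal-1. In replicates 1 and 2 the mapk-15 peak was at ranks 91 and 747, and the kal-1 peak at ranks 65 and 6286. The other 3 ranked more alike in both, at 183 and 157 near Y17G7B.17, 252 and 184 near F25F8.1 and 195 and 381 near sma-9.

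The windows printed above were searched on both strands for short motifs, and each match is a description of letters only. In the upstream thresholded window of pha-4, the hexamer CGTCTC on the plus strand overlapped with AGAGAC on the minus strand, and also with ACGCAG on the minus strand. Together they made the run CTGCGTCTCT at bases 71 to 80, across the summit at base 76. These hexamers had come out of an earlier look at the same thresholded peaks. CGTCTC was found in 27.6% of 713 thresholded windows and 4.24% of 29286 other pooled windows. The shares were 30.3% and 5.76% for AGAGAC and 23.8% and 3.69% for ACGCAG. The whole run, chosen after it was seen, was in 74 thresholded windows (10.4%) and 276 others (0.942%). Mean G+C was 43.3% in thresholded and 32.3% in other windows, and its part in these shares was not tested. In the 91 windows of the 7 genes AGAGAC was found in 7.69% and each of the other hexamers in 6.59%, and mean G+C was 34.6%.

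Motifs of the factors' own families were found in few of the windows. The forkhead motif TGTTTAC was in 4 of the 91 windows (4.4%), against 1.96% of thresholded and 2.16% of other pooled windows. They included the pha-4 peak just outside the threshold, on the minus strand, and the highest, intronic peak of eya-1. The second forkhead form, TGTTTGC, was in 3 windows (3.3%, against 10.8% of thresholded and 3.49% of other pooled windows). The NK-2 motif CACTTNA was in 4 (4.4%, against 6.73% and 6.82%), 1 of them the highest peak of peb-1. The T-box motif GGTGTGA was in 2, both at tbx-2 (2.2%, against 0.701% and 0.878%), and TGATAC, a motif of the sine oculis family, in 4 (4.4%, against 3.23% and 4.21%). The paired motif GTCACG was in 3 windows, 1 at pha-4 and 2 at tbx-2 (3.3%, against 6.03% and 1.87%). With counts of 2 to 4 windows, shares of this size were not distinguished from one another. None of these 6 motifs was in either thresholded window of pha-4.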

How the data were processed

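Late embryos of 1 group were profiled in 2 replicates. The authors deposited a signal value per peak (scale not stated) and a −log10 q, in narrowPeak lists on ce11 and ce10. Per the deposited file listing, each replicate's list and the pooled list came from alignments with a control alignment, and the irreproducible discovery rate step made the thresholded list from them. For the aligner, peak caller and threshold, the choice is not given in the sources used here. A control with other copy number at a locus can add or remove peaks there. The ce10 lists were not used, and the number of unmatched columns was 0.

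Genes and starts came from Ensembl 115 (WBcel235, ce11 coordinates), and sequence from RefSeq's copy of that assembly.  A peak counted for a gene when any base lay in the gene or within 10 kb. Peaks were ranked by signal, and replicate support needed 1 bp of overlap. Where several replicate peaks overlapped, the highest was taken. Motifs were searched 75 bp to either side of summits. The 9 motifs and 33 other pharynx genes, all of which matched by name, and the 7 genes were chosen with earlier results of these data known. Named were the 7 genes, the nearest starts of their highest peaks, other pharynx genes with a thresholded peak (at most 10) and the 5 distal thresholded peaks closest in rank to each of theirs. Any other gene was picked with its values in view. No test was made. Counting steps were tested on simulated data. Alternatives were other distances, summits, starts, a stricter list and either replicate. Python 3.11.15, numpy 2.4.6, pandas 2.3.3 and matplotlib 3.10.9 were used.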

Additional observations from a re-analysis of the deposited data

How the results depend on the processing

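pha-4 had a thresholded peak under every alternative tried. The count of the 7 genes with one was 2 with 20 kb on each side, where pha-1 was added. Leaving out 1 replicate gave 1 to 2 genes of the 7 and 76 to 77 peaks in the windows in place of 91. It also gave 4 to 5 of the other pharynx genes and 15.3% to 15.5% of protein-coding genes. Those other pharynx genes were not the same ones throughout. Replicate 1 alone gave hlh-6, glp-1, myo-2, lag-1 and skn-1, and replicate 2 alone gave hlh-6, ceh-24, lag-1 and skn-1. Neither gave ceh-2, and lag-1 and skn-1 had no thresholded peak. The 91 pooled peaks became 139 with 20 kb and 34 when both replicates had to hold them. The 5 other pharynx genes became 3 with 5 kb, 10 with 20 kb, 3 with distance counted from the outermost start and 1 with the 357 highest thresholded peaks. The share of protein-coding genes moved from 15.5% to 9.88%, 25.2%, 13.8% and 7.91% under the same 4 settings. Those 4 settings widened or narrowed the window or shortened the list. Leaving out 1 replicate put another list in use, and the count of 34 required overlap with peaks of both replicates. Depth is unknown and limits every list to the authors' ranking. No paired analysis was possible because there was 1 group and no test.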
